A study of Mus musculus with 15 samples.

Results

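The 10 genes described here are markers of Purkinje cells: Calb1, Pcp2, Pcp4, Car8, Itpr1, Skor2, Foxp2, Rora, Slc1a6 and Ppp1r17. They were taken by name from the 21889 genes of the gene count tables, and all 10 were found and passed the filter on low counts. Poly(A) RNA was sequenced from 15 mouse cerebellar libraries, 3 in each of 5 groups. Of these groups, 4 were granule neuron precursors purified on Percoll, those of E15.5 labelled Math1-GFP for genotype and those of P1, P7 and P14 labelled WT. The last group, MB, was medulloblastoma cells purified the same way, with the label Ptch1 heterozygous and no age. Math1 is another name of Atoh1, the transcription factor that marks granule precursors, and age and genotype label change together between E15.5 and P1. The labels do not say whether a library came from a single animal, a pool or a tumour of its own, so p-values measure the spread between libraries, which may be technical.

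Purkinje cells are the large GABAergic output neurons of the cerebellar cortex. They arise in the ventricular zone, not in the rhombic lip that gives rise to granule precursors, and they receive granule cell input on their dendrites. Their dendrites couple metabotropic glutamate receptors to calcium release from internal stores, and many Purkinje markers, Calb1, Itpr1 and Car8 among them, buffer, release or regulate that calcium. The 10 genes are therefore not markers of the cell type named on the libraries, although some, Rora, Itpr1 and Foxp2 among them, are known in other neurons as well.

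Between 12597472 and 43443132 counts per library fell in genes. Granule precursor markers were present in each of them, with Atoh1 at 124 to 139 CPM (counts scaled to a common library size with TMM factors) at E15.5, 10.9 to 13.1 CPM at P14 and 236 to 322 CPM in MB. Markers of other cells were present too. The summed level of 8 oligodendrocyte genes was 52.9 to 59.3 CPM at E15.5 and 6771 to 7374 CPM at P14. Among the P1 libraries it was 180, 716 and 4193 CPM in replicates 1 to 3, so the library labelled P1 replicate 3 lay nearer to P14 than the other 2 did. The libraries fell into 2 sets by how the gene Tsnax was counted. Of the Tsnax count in the transcript table, the gene table kept at least 92.4% in 9 libraries and no more than 0.273% in 6, which were MB replicate 1, E15.5 replicates 1 and 3, and the P7 libraries. Inside 1 set, E15.5 is replicate 2 alone against P1 and MB is replicate 1 alone against P7, so values given there rest on 1 library on that side, which is assumed to vary like the other groups. For the 9 listed genes found in the transcript table, the share of the transcript count kept in the gene table was 83.0% to 100% in all libraries with a count, in both sets.

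Foxp2 and Skor2 were the 2 listed genes that stood highest at E15.5 and lay far below that level after birth. Foxp2 (ENSMUSG00000029563, chromosome 6, 14851349 to 15391977 in mm9) encodes a forkhead transcription factor of early Purkinje neurons. Its libraries held 271, 322 and 405 CPM at E15.5, 37.5, 50.7 and 29.7 CPM at P1, 20.5, 14.9 and 17.7 CPM at P7, and 10.6, 7.69 and 9.13 CPM at P14. No 2 ages overlapped. Its log2 fold change at P1 against E15.5 was -3.08 (SE 0.30, FDR 1.97e-06 by edgeR's quasi-likelihood test with Benjamini-Hochberg adjustment). It was -2.92 and called without the library labelled P1 replicate 3, and the estimate inside 1 counting set, with E15.5 replicate 2 alone, was -3.03. Foxp2 fell again between P1 and P14 (log2 fold change -2.11, SE 0.29, FDR 0.00105), and this call was kept without any 1 of the 6 libraries. Markers of other cells moved at the same step. The 7 GABAergic interneuron genes went from a summed 460 to 581 CPM at E15.5 to 160 to 222 CPM at P1. The 6 genes of unipolar brush cells and cerebellar nuclei went from 259 to 526 CPM to 145 to 175 CPM. In these lists 6 and 5 genes were called lower, as were 20.9% of all genes tested. Single genes fell by more than these sums show, with log2 fold changes of -4.72 for Meis2, -4.57 for Lhx9, -3.80 for Tbr1 and -4.29 for Sst. Slc17a6 (-0.13) and Npy (-0.02) hardly changed. These single genes are named after their values were seen. The astroglial, oligodendrocyte, vascular and choroid plexus genes were all called higher, as were 6 of 7 microglial genes (25.4% of all genes tested). The part of these other cells in the Purkinje values was not tested. In bulk RNA, fewer Purkinje cells in a sample, less RNA per Purkinje cell and a change in other cells that express these genes cannot be told apart.

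Skor2 (ENSMUSG00000091519, chromosome 18, 77095144 to 77139081 in mm9) encodes a transcriptional corepressor that is required for Purkinje cell differentiation. It had 45.9, 48.4 and 63.6 CPM at E15.5. The P1 libraries held 5.11, 6.13 and 2.94 CPM, the P7 libraries 7.57, 1.77 and 6.01 CPM, and the P14 libraries 2.09, 0.603 and 2.34 CPM. The E15.5 libraries thus stood apart from the 9 postnatal ones, among which P1 and P7 overlapped. Skor2 fell at P1 against E15.5 (log2 fold change -3.48, SE 0.55, FDR 2.34e-04 by edgeR). The later differences were not called, with a log2 fold change of 0.11 at P7 against P1 (FDR 0.932) of -1.61 at P14 against P7 (FDR 0.0701) and of -1.496 at P14 against P1 (FDR 0.0923). DESeq2 called the last 2 of these.

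Rora, the orphan nuclear receptor mutated in the staggerer mouse, was the listed gene whose level differed least between ages. Its group means were 103 ± 18.8 CPM at E15.5, 76.9 ± 25.3 CPM at P1, 93.1 ± 33.6 CPM at P7 and 101 ± 14.9 CPM at P14 (SD, n = 3). The highest mean was 1.34 times the lowest, libraries of all 4 ages overlapped, and the test for any difference among the ages gave an FDR of 0.583 by edgeR. Rora lies on chromosome 9 at 68501593 to 69236053 in mm9.

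**Figure D1:**
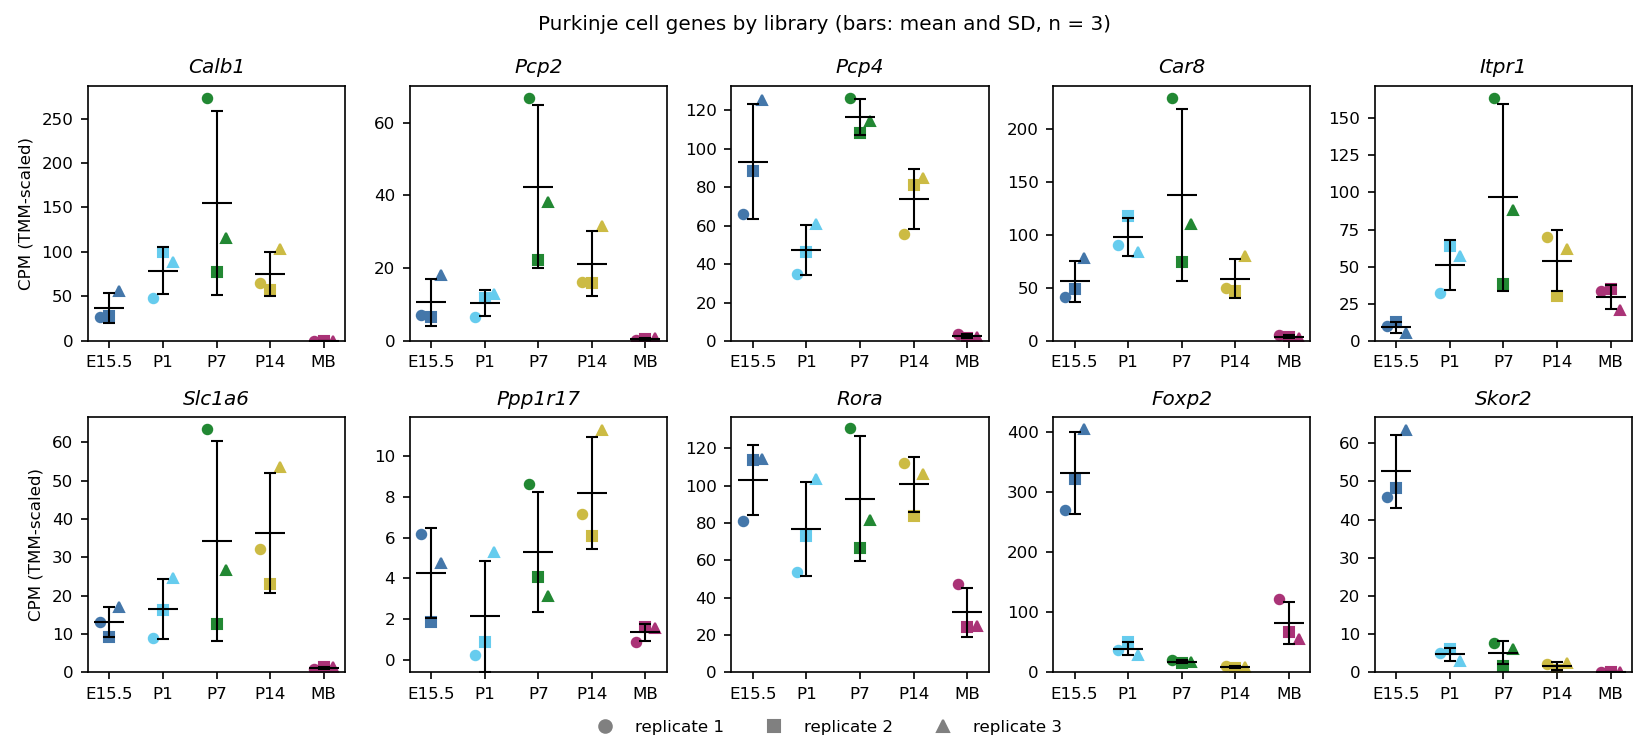
Level of each of the 10 Purkinje cell genes in every library, in CPM on linear axes, by group (points by replicate, bars for the mean and SD of 3 libraries). Foxp2 and Skor2 stand highest at E15.5, P7 replicate 1 is the highest P7 library in each panel, and Calb1 is at 0.159 to 0.244 CPM in MB.

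The genes of calcium handling had their lowest age mean at E15.5. Calb1 (ENSMUSG00000028222, chromosome 4, 15808411 to 15835211 in mm9) encodes the calcium buffer calbindin. It had 27.2, 27.6 and 56.5 CPM at E15.5, 48.8, 99.4 and 88.8 CPM at P1, 273, 77.1 and 115 CPM at P7, and 64.6, 57.3 and 103 CPM at P14. P7 held the highest mean, 155 CPM with replicate 1 and 96.2 CPM for the other 2 libraries, and the 3 postnatal ages overlapped. Calb1 was called higher at P1 than at E15.5 (log2 fold change 1.09, SE 0.42, FDR 0.0473 by edgeR). That call was lost with any of 4 libraries left out, namely E15.5 replicate 1 (0.90) or 2 (0.91), P1 replicate 2 (0.89) or 3 (0.99), and also inside 1 counting set, with E15.5 replicate 2 alone (1.52). No later step of Calb1 was called.

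Itpr1 (ENSMUSG00000030102) encodes the IP3 receptor that releases calcium from the endoplasmic reticulum. Its libraries held 9.73, 12.7 and 5.04 CPM at E15.5 and 32.1, 64.2 and 57.2 CPM at P1, with no overlap. It held 164, 38.6 and 88.1 CPM at P7 and 69.9, 30.6 and 62.0 CPM at P14, and these ages overlapped with P1. The rise at P1 was 2.50 on the log2 scale (SE 0.50, FDR 9.04e-04 by edgeR), and inside 1 counting set, with E15.5 replicate 2 alone, the highest of its group, it was 2.01 and not called. Car8, on chromosome 4 at 8070514 to 8166188 in mm9, encodes a carbonic anhydrase-related protein that binds this receptor. It went from 56.3 ± 19.4 CPM at E15.5 to 97.9 ± 17.9 at P1, 138 ± 81.1 at P7 and 59.0 ± 18.3 at P14 (SD, n = 3). The 4 ages differed for Car8 (FDR 0.0210 by edgeR), but no single step passed. Its estimate at P14 against P7 was -1.23 on the log2 scale (FDR 0.0534), a step called with DESeq2, with no filter on low counts and with the groups compared alone. With the groups compared alone, P1 against E15.5 (0.83) and P14 against P1 (-0.74) were called too.

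Pcp2 and Pcp4 are small proteins that modulate G protein and calmodulin signalling in Purkinje cells. Pcp2 (chromosome 8, 3623377 to 3625282 in mm9) had 6.48, 11.7 and 13.04 CPM at P1 and 66.8, 22.3 and 38.3 CPM at P7, with no overlap. It was called higher at P7 (log2 fold change 2.03, SE 0.52, FDR 0.0467 by edgeR). Pcp4 (chromosome 16, 96689213 to 96747400 in mm9) had 66.1, 88.5 and 125 CPM at E15.5, 34.8, 46.5 and 61.0 CPM at P1, 126, 108 and 114 CPM at P7, and 55.9, 81.1 and 84.8 CPM at P14. P1 lay below E15.5 and P7 without overlap. Pcp4 fell at P1 against E15.5 (-0.98, SE 0.30, FDR 0.0142) and rose at P7 against P1 (1.30, SE 0.30, FDR 0.0320). The fall was lost without E15.5 replicate 3 (-0.76), without P1 replicate 1 (-0.80) and inside 1 counting set, with E15.5 replicate 2 alone (-0.90).

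Both rises at P7 were lost without any 1 of 5 libraries. Without P1 replicate 1 or 2 the estimates were 1.78 or 2.12 for Pcp2 and 1.12 or 1.28 for Pcp4. Without P7 replicate 1, 2 or 3 they were 1.55, 2.34 or 2.10 for Pcp2 and 1.24, 1.35 or 1.31 for Pcp4. Foxp2, the remaining call at P7 against P1 (-1.15, SE 0.28, FDR 0.0401), was lost without the same libraries (-1.18 or -0.92, and -1.27, -1.04 or -1.15) and with the replicate number as a block (-1.16). With the groups compared alone, Pcp2 (2.03) and Foxp2 (-1.15) lost their calls as well. Over all genes, 480 were called in the reported fit, 248 with the block and 203 with the groups compared alone. Without P1 replicate 1 or 2 the number over all genes was 294 or 9. Without P7 replicate 1, 2 or 3 it was 106, 21 or 156. All P7 libraries carried the Tsnax counting difference and all P1 and P14 libraries lacked it, so set and age cannot be told apart at these steps.

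The TSS model table held only part of the Pcp4 reads. Its 1 model matched to Pcp4 had 5.47% to 7.90% of the gene's counts at E15.5, 20.4% to 24.7% at P1, 1.86% to 12.6% at P7, 19.7% to 21.2% at P14 and 4.30% to 10.9% in MB. In that table the Pcp4 estimates turned to 0.66 at P1 against E15.5 and -0.37 at P7 against P1, neither called. The other 6 listed genes in that table had all their gene counts there wherever they had any.

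The sequences before the starts of Pcp2, Pcp4 and Slc1a6 are shown because promoter windows were given for these genes. Whether Rora, a listed gene that encodes a ROR receptor, acts on them was not tested. RefSeq promoter windows (GRCm38.p6, 250 bases before to 50 after a start) were given for 4 of the 10 genes: Pcp2, Pcp4, Slc1a6 and Rora. The windows were searched on both strands for AGGTCA, a core sequence of ROR receptor sites that is not particular to them. It is in 16.3% of the 32851 windows of that length. AGGTCA was in 3 of the 4 Pcp2 windows, of which 2 overlap and hold the same match, and in the Pcp4 window, and not in those of Slc1a6 or Rora. Capitals mark the match, which begins 87 bases before the start in the Pcp2 window shown (chr8:3625423-3625722, minus strand). In Pcp4 it begins 164 bases before the start on the opposite strand (chr16:96467356-96467655, plus strand), and the Slc1a6 window is chr10:78780246-78780545, plus strand.
Pcp2: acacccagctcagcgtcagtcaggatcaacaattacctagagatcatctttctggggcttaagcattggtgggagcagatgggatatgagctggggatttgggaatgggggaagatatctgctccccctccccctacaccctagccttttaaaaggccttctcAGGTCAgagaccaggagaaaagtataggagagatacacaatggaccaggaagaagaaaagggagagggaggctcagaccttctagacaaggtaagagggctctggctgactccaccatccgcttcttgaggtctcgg
Pcp4: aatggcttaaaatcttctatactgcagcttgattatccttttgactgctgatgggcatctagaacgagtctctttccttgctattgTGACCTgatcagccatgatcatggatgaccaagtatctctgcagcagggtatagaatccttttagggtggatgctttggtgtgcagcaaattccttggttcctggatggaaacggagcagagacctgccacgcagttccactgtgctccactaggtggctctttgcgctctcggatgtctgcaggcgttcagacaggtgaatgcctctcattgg
Slc1a6: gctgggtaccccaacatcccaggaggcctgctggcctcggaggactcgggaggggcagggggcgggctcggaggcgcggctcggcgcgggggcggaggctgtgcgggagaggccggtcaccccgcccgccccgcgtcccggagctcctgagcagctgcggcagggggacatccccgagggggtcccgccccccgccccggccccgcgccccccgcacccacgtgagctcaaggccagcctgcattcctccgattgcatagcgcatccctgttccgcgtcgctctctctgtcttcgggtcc
A match is a description of these letters and not a binding site.

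Slc1a6 and Ppp1r17 had their highest mean at P14. Slc1a6 (chromosome 10, 78243241 to 78277570 in mm9) encodes EAAT4, the glutamate transporter of Purkinje dendrites. It had 13.2, 9.35 and 17.2 CPM at E15.5, 8.93, 16.2 and 24.5 CPM at P1, 63.3, 12.7 and 26.7 CPM at P7, and 32.2, 23.1 and 53.5 CPM at P14. P14 lay above E15.5 without overlap, neighbouring ages overlapped, and the test over the 4 ages passed (FDR 0.0414 by edgeR) while no single step did. Ppp1r17 (chromosome 6, 55967509 to 55982682 in mm9) encodes G-substrate, a phosphatase inhibitor phosphorylated by cGMP-dependent kinase. At P1 it rested on few reads, with 5, 23 and 140 counts in replicates 1 to 3, or 0.215, 0.892 and 5.28 CPM. Its level at P14 was 7.15, 6.09 and 11.3 CPM, and P14 against P1 was not called (log2 fold change 1.93, FDR 0.113). Without the library labelled P1 replicate 3 the estimate was 3.86 and called, as were P1 against E15.5 (-2.94) and P7 against P1 (3.23).

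Of the 10 genes, 8 differed among the 4 ages, against 55.7% of all 15259 genes tested. At P1 against E15.5, 2 were called higher (25.4% of all genes) and 3 lower (20.9%). At P7 against P1, 2 were called higher (1.40%) and 1 lower (1.74%). At P14 against P7 none was called higher (5.81%) and Foxp2 was called lower (4.51%, log2 fold change -0.96, SE 0.28, FDR 0.0444 by edgeR). At P14 against P1 none was higher (3.63%) and Foxp2 alone was lower (5.31%). At these last 2 steps, DESeq2 called 3 of the 10 genes each time, where it called 2418 and 2407 of all 19133 genes it fitted. The median log2 change of the 10 genes was -0.23, 0.95, -0.90 and 0.24 in these 4 comparisons, beside 0.03, -0.01, -0.01 and 0.01 over all genes. The comparisons of neighbouring ages share libraries. The call of Foxp2 at P14 against P7 was lost without any 1 of its 6 libraries (-0.86, -1.07 or -0.96 with P7 replicate 1, 2 or 3 left out, and -1.08, -0.85 or -0.96 with a P14 library left out). The calls over all genes fell in the same fits, from 1574 to 1077, 158 or 948 and to 433, 125 or 443.

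**Figure D2:**
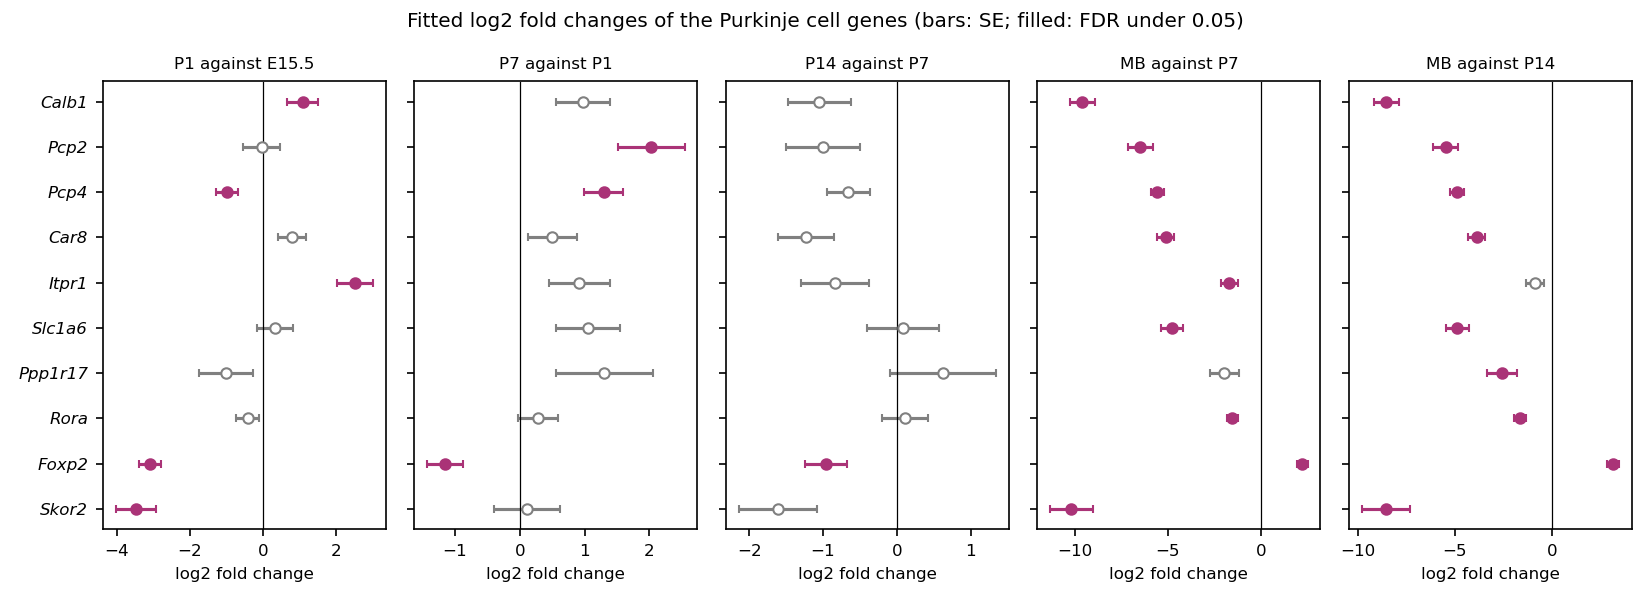
Fitted log2 fold change of each Purkinje cell gene in 5 comparisons (x axis, scales differ between panels), with bars for the SE and filled points for an FDR under 0.05. Foxp2 is called to the left of 0 at all 3 age steps and to the right of 0 in both tumour comparisons. The Skor2 points in the tumour panels are fitted values against a group with no counts.

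All 10 genes were highest in the same P7 library. P7 replicate 1 was the highest of its group for 10 of 10, against 27.5% of all genes tested. It stood at least 2-fold above the mean of the other 2 P7 libraries for 6 of 10, against 2.60% of all genes. The 6 were Slc1a6 (3.21-fold), Calb1 (2.84-fold), Itpr1 (2.59-fold), Car8 (2.48-fold), Ppp1r17 (2.40-fold) and Pcp2 (2.20-fold). Foxp2 (1.26-fold) and Pcp4 (1.14-fold) differed least. In the same library the summed astroglial genes were at 4126 CPM, against 1872 and 2924 CPM in the other 2, and the oligodendrocyte genes at 1906 against 815 and 1056 CPM. The 4 choroid plexus genes went the other way, at 12.3 against 468 and 1953 CPM. GABAergic interneuron genes (219 against 189 and 276 CPM) and granule precursor genes (5659 against 5284 and 5966 CPM) lay between or near the other libraries. The part of these differences in the P7 values was not tested. At P14, replicate 3 was the highest for 7 of the 10 genes (25.4% of all genes), and at E15.5 replicate 3 was the highest for 8 (47.0%).

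The genes were next set against Calb1 within each library, which removes the scaling between libraries. Calb1 itself was not constant, with means of 37.1 CPM at E15.5, 79.0 at P1, 155 at P7 and 75.1 at P14. The ratios therefore carry its changes too. Per 100 Calb1 counts there were 716 to 1166 Foxp2 counts at E15.5, 33.5 to 77.0 at P1, 7.53 to 19.3 at P7 and 8.84 to 16.4 at P14. Skor2 had 112 to 175, 3.31 to 10.5, 2.29 to 5.21 and 1.05 to 3.23 on the same scale. For both genes every E15.5 library lay above every postnatal one. Car8 had 138 to 177 counts per 100 at E15.5, 95.1 to 187 at P1, 84.1 to 96.9 at P7, with replicate 1 the lowest, and 77.4 to 81.8 at P14.

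Other genes moved against Calb1 between postnatal ages. Pcp2 had 11.8 to 14.7 counts per 100 Calb1 counts at P1, below the 23.6 to 33.2 of the other 9 libraries. Slc1a6 had 40.4 to 51.8 at P14, above the 16.5 to 23.2 of the P7 libraries. Ppp1r17 had 10.6 to 11.1 at P14, above 2.71 to 5.30 at P7. Rora stood at 103 to 174 at P14, above the 48.0 to 86.5 at P7. These ratios were not tested.

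**Figure D3:**
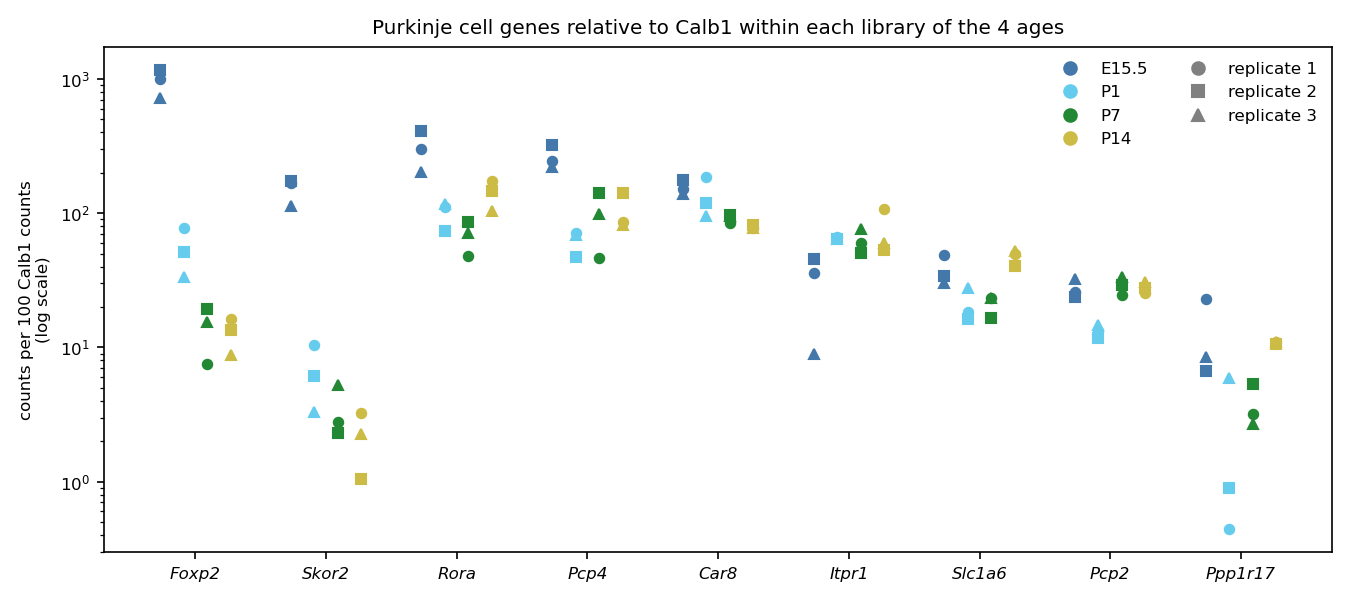
Counts of 9 Purkinje cell genes per 100 Calb1 counts in each library of the 4 ages (log scale, colours for age, symbols for replicate). Foxp2 and Skor2 run from 959 and 152 at E15.5 to 12.9 and 2.18 at P14 on average, while Car8 stays between 77.4 and 187.

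Levels can be compared between genes when counts are divided by exon length, which was known for 9 of the genes (all except Itpr1). At P7 Pcp4 had the highest mean, with 182 ± 14.6 CPM per kb (SD, n = 3), followed by Pcp2 with 85.8 ± 45.5, Calb1 with 36.7 ± 24.6 and Car8 with 35.9 ± 21.1. Their libraries overlapped from Pcp2 downwards. Skor2 was the lowest there, at 1.63 ± 0.956 CPM per kb. At E15.5 the order was Pcp4 with 146 ± 46.7 CPM per kb, then Foxp2 with 49.2 (40.01 to 59.9) and Pcp2 with 21.4 ± 13.3. Foxp2 lay above Pcp2 without overlap at E15.5, and below it without overlap at each later age.

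Medulloblastoma cells were compared with P7 precursors, near the peak of precursor proliferation, and with P14 precursors, when most have left the cycle. Calb1, Pcp2 and Skor2 were under 1 CPM in every MB library, while Foxp2 was higher there than in either age. Calb1 had 4, 10 and 4 counts in the MB libraries, or 0.159, 0.244 and 0.160 CPM, so that P7 held 794 times as much (95% counting interval 503 to 1341) and P14 377 times (238 to 637). Skor2 had no count in any MB library, and with a floor of 3 counts over the group it was at least 151-fold lower than at P7, 49.8-fold lower than at P14 and 1687-fold lower than at E15.5. Intervals and floors cover counting error only.

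Pcp2, Pcp4, Car8 and Slc1a6 fell as well in MB against P7. Pcp2 had 0.119 to 0.681 CPM in MB (log2 fold change -6.48, SE 0.66, FDR 2.86e-06 by edgeR). Pcp4 had 1.56 to 3.69 CPM (-5.56, SE 0.36, FDR 4.70e-08), Car8 2.64 to 5.75 CPM (-5.11, SE 0.46, FDR 8.16e-07) and Slc1a6 0.912 to 1.40 CPM (-4.80, SE 0.59, FDR 1.64e-05). Against P14 the changes of these 4 genes were -5.48, -4.91, -3.89 and -4.89, all called. None of their MB libraries overlapped with a P7 or P14 library. Together with Calb1 and Skor2 they were called in each alternative that held them.

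Rora, Itpr1 and Ppp1r17 were lower in MB by less. Rora had 47.4, 24.3 and 24.7 CPM, below every precursor library, and was called at MB against P7 (-1.54, SE 0.32, FDR 0.00143) and against P14 (-1.65, FDR 5.27e-04). Inside the counting set that holds the P7 libraries and, of MB, replicate 1 alone, its estimate was -0.98 and not called. Itpr1 had 33.7, 35.2 and 20.6 CPM in MB. It was called lower than at P7 (-1.70, SE 0.48, FDR 0.0115), but not without P7 replicate 1 (-1.04) nor inside 1 counting set, with MB replicate 1 alone (-1.53). It was not called against P14 (-0.86, FDR 0.140), with libraries that overlapped. Ppp1r17 had 0.873, 1.61 and 1.56 CPM and was called against P14 (-2.59, FDR 0.0118) and not against P7 (-1.96, FDR 0.0593), a step that DESeq2 called.

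Foxp2 was the exception. It had 123, 68.0 and 56.3 CPM in the MB libraries, above all P7 (14.9 to 20.5 CPM) and all P14 libraries (7.69 to 10.6 CPM) and below all E15.5 libraries (271 to 405 CPM). The rise was 2.22 on the log2 scale against P7 (SE 0.29, FDR 2.88e-05 by edgeR) and 3.18 against P14 (SE 0.30, FDR 9.38e-07). Inside 1 counting set the estimate was 2.79 against P7, with MB replicate 1 alone, the highest of the MB libraries, and 2.77 against P14, with MB replicates 2 and 3. The MB libraries also lay above all P1 libraries (29.7 to 50.7 CPM), a difference that was not tested.

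In counts, 1 of the 10 genes was called higher in MB than at P7 (13.7% of all genes tested) and 8 lower (20.7%). At MB against P14, 1 was higher (22.9%) and 8 lower (27.2%). The median log2 change was -4.96 and -4.39, also with Skor2 at its bound, beside 0.02 and 0.01 over all genes. The 2 comparisons share the MB libraries. The levels of other markers moved with the same groups. The 7 GABAergic interneuron genes had a summed level of 2.12 to 3.41 CPM in MB, against 189 to 276 CPM at P7, and 6 of them (Pax2, Gad2, Slc32a1, Slc6a5, Sst and Npy) were under 1 CPM in every MB library. The vascular genes were at 21.2 to 27.9 CPM in MB against 254 to 317 CPM at P7. Astroglial genes were at 972 to 1433 CPM in MB against 1872 to 4126 CPM at P7. Oligodendrocyte genes were at 87.3 to 126 CPM in MB against 815 to 1906 CPM at P7. Microglial genes were higher in MB, at 155 to 406 CPM against 45.9 to 133 CPM at P7. Granule precursor genes were at 3167 to 5692 CPM. Their part in the Purkinje values was not tested.

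**Figure D4:**
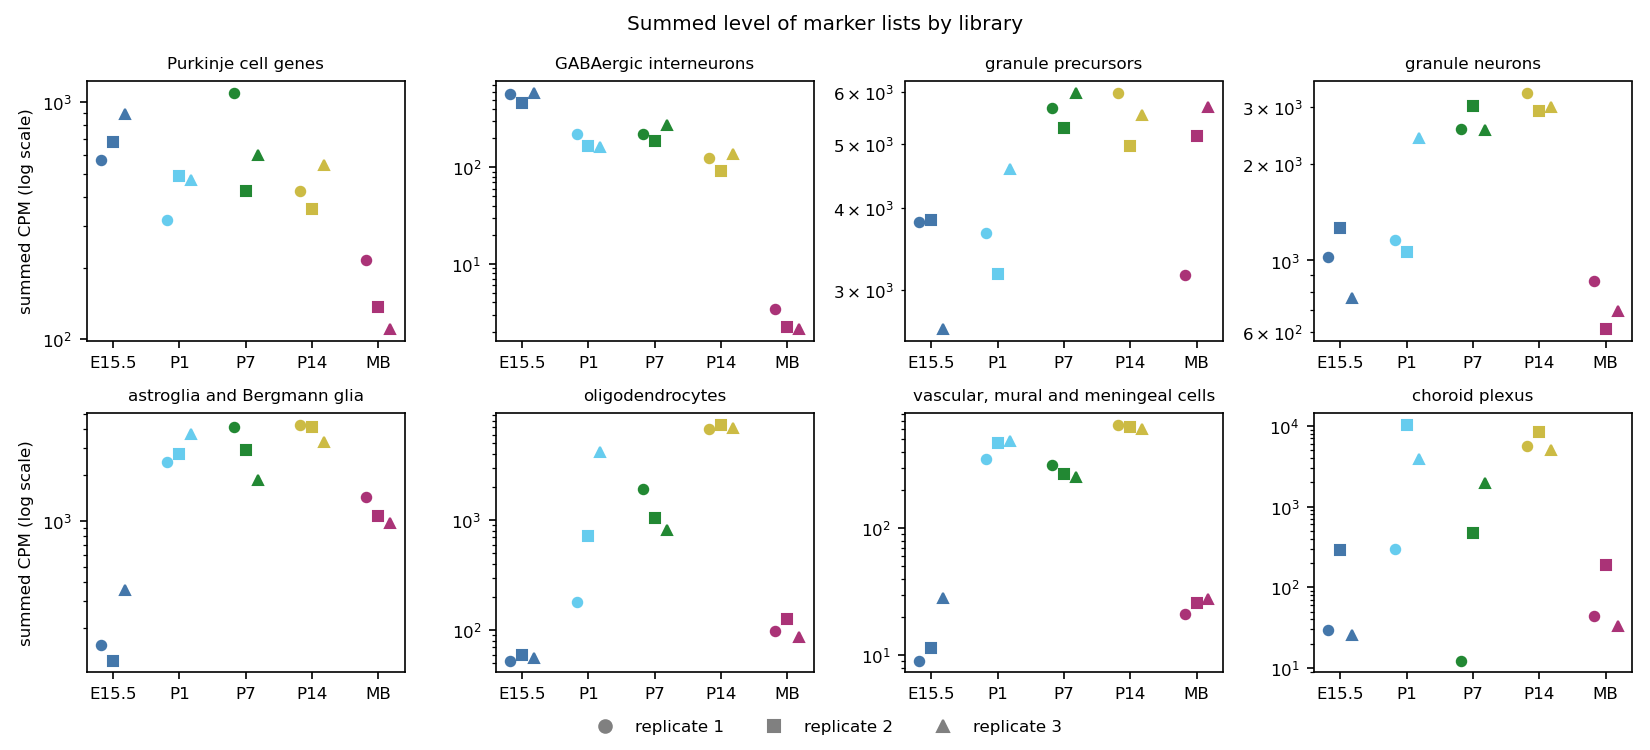
Summed level of the 10 Purkinje cell genes and of 7 other marker lists in every library (CPM, log scale, symbols for replicate). GABAergic interneuron genes are at 2.12 to 3.41 CPM in MB, oligodendrocyte genes spread from 180 to 4193 CPM among the P1 libraries, and choroid plexus genes are at 12.3 CPM in P7 replicate 1.

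Other genes of the Purkinje lineage were taken as 14 genes of specification and differentiation, all of them tested. At P1 against E15.5, 4 were called higher (25.4% of all genes tested) and 7 lower (20.9%), with a median of -0.54 beside 0.03 over all genes. The largest changes were falls in Esrrb, an orphan nuclear receptor (log2 fold change -3.33, SE 0.39, FDR 1.06e-05 by edgeR), and Ebf2, a transcription factor of Purkinje subsets (-3.32, SE 0.31, FDR 1.73e-06). At P14 against P1 none was higher (3.63%) and 5 were lower (5.31%), led by Ptf1a (-3.85, FDR 0.00244) and its target Kirrel2 (-2.81, FDR 0.00645), which mark GABAergic progenitors of the ventricular zone and of interneurons alike. Ptf1a had 4.03 to 11.2 CPM at P1, against 0.251 to 1.81 CPM at E15.5 and 0.332 to 0.769 CPM at P14.

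In MB against P7, 1 of these 14 genes was called higher (13.7% of all genes) and 7 lower (20.7%), with a median of -0.98 beside 0.02 over all genes. By fitted values the largest falls were in Lhx5, a LIM homeobox factor of early Purkinje cells (10 counts in all MB libraries, -8.97, SE 0.55, FDR 2.91e-08), and Kirrel2 (10 counts, -8.56, FDR 6.19e-07). Shh, the mitogen that Purkinje cells supply to granule precursors, was low at P7 (2.51, 0.717 and 1.16 CPM), lower still in MB (0.0397, 0.0977 and 0 CPM) and called (-4.68, SE 0.74, FDR 1.69e-04), and is named after its values were seen. The gene that rose was Ebf2, named here after its values were seen, from 11.6 to 14.5 CPM at P7 to 242, 136 and 85.3 CPM in MB (3.56, SE 0.32, FDR 8.25e-07). Like Foxp2, it was highest in E15.5 or MB libraries, at 159 to 206 CPM in the former.

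The second list held 9 further Purkinje markers. At P1 against E15.5, 2 were called higher (25.4% of all genes) and 2 lower (20.9%), shares near those over all genes. Aldoc, which marks Purkinje stripes and also astroglia, rose (3.76, FDR 1.50e-05), while the summed astroglial list went from 123 to 357 CPM at E15.5 to 2428 to 3710 CPM at P1. Pvalb, a calcium buffer of Purkinje cells and interneurons, fell (-3.68, FDR 1.89e-04), from 69.6 to 178 CPM to 4.51 to 16.0 CPM. At P14 against P1, Gng13 was the 1 gene called (higher, as were 3.63% of all genes, 2.74, FDR 0.0490), with 24 counts over the P1 libraries. In MB against P7, 7 of the 9 were lower (20.7% of all genes), led by Arhgef33 (-5.23, FDR 9.14e-06) and Rgs8, a regulator of G protein signalling (-5.10, FDR 1.01e-04), and none was higher (13.7%). The list median was -2.80.

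**Figure D5:**
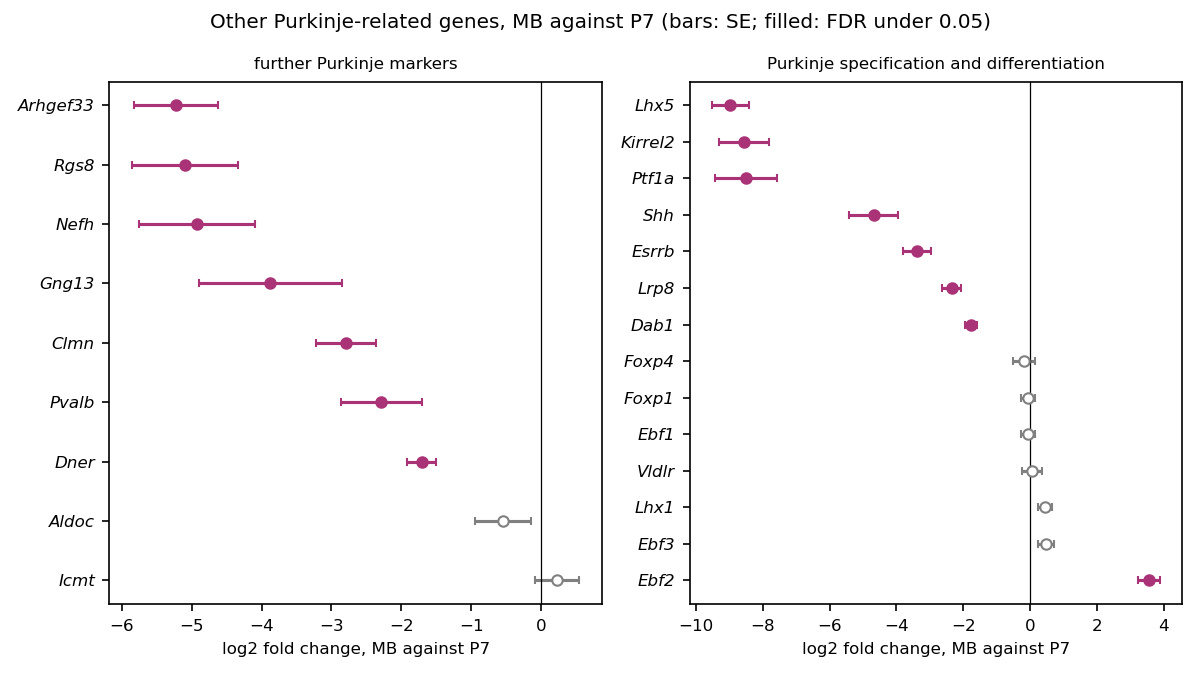
Fitted log2 fold change in MB against P7 for the 9 further Purkinje markers and the 14 genes of specification and differentiation (bars for the SE, filled points for an FDR under 0.05). Ebf2 is the 1 called gene to the right of 0, and Lhx5, Kirrel2 and Ptf1a lie farthest to the left.

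The third list held 20 genes of glutamate and IP3 receptor signalling and its partners. At P1 against E15.5, 5 were called higher (25.4% of all genes) and 5 lower (20.9%), shares near those over all genes. Itpka, a kinase of IP3, had 3 counts over the E15.5 libraries and 189 over the P1 libraries, a ratio of 60.8 (95% counting interval 20.5 to 297, FDR 1.10e-04 by edgeR). Atp2a3, a calcium pump, rose by 4.11 (FDR 1.06e-04). At P7 against P1, 3 were higher (1.40%) and none lower (1.74%). In MB against P7, 12 of 20 were lower (20.7% of all genes) and none higher (13.7%), with a median of -1.26 beside 0.02 over all genes. Camk2a (-5.78, FDR 1.79e-06) and Itpka (-5.38, FDR 2.83e-05) changed most. Among the genes not called were Gnaq, Gna11, Plcb3, Plcb4 and Atp2a2, with estimates from -0.50 to 0.09, and Homer3 (-0.61) and Kcnma1 (-0.84). These 7 genes are named after their values were seen.

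The genes whose level followed each listed gene most closely were sought by Pearson's r of log2 CPM over the 15 libraries, among 11575 genes (11576 for Ppp1r17). These libraries share groups and depth, so r is a description. Calb1 and Car8 were each other's closest gene (r = 0.979), and Slc1a6 was closest to Pcp2 (0.965). Pcp2 was closest to Sh3bp4 (0.974), which was also the second for Calb1 (0.976), and Arhgef33 of the marker list was the second for Car8 (0.974). Pcp4 was closest to Frmd5 (0.982) and Mfap4 (0.980), and Skor2 to Dpysl3 (0.984) and Magel2 (0.979). Foxp2 was closest to Sorcs3 (0.957) and Nme6 (0.952), and Rora to Lss (0.946) and Nrip3 (0.939). Itpr1 was closest to Tnxb (0.929) and Tacc1 (0.915), and Ppp1r17 had the weakest likeness, to Ube2ql1 (0.913) and Clec2l (0.895). The second genes for Pcp2 and Slc1a6 were Pde9a (0.971) and Atp1b1 (0.962).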

How the data were processed

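The authors deposited raw read counts for each library, per gene, per TSS (transcription start site) model and per transcript. Trimmomatic, TopHat, StringTie, HTSeq and the build mm9 are named in the submitters' processing notes, without versions. The strand setting is not given in the sources used here, and the 5 summary lines, which name no gene, were left out (39.5% to 55.4% of a library's records were counted in genes). Symbols were matched by Ensembl ID for 20358 of 21889 genes. Positions are those of the transcript table, and Itpr1 was not matched to a transcript there.

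The gene table was fitted with edgeR 4.0.16 in R 4.3.3: filterByExpr (minimum count 10, total 15), which kept 15259 genes, TMM scaling and a quasi-likelihood fit of all 15 libraries, each group having 1 mean (10 residual degrees of freedom). FDR is Benjamini-Hochberg over all genes tested, and a call is an FDR under 0.05. Named genes were all 10 members, up to 2 called genes with the largest change per further list at P1 against E15.5, P14 against P1 and MB against P7, and the 2 genes most like each member (mean 5 CPM or more). Other genes are marked where they were named after their values were seen. Log2 CPM used a prior count of 2. The script was tested on simulated data. Alternatives were DESeq2 1.42.0, RLE scaling, no filter, the groups compared alone, a replicate block, the other 2 tables, 1 counting set, and leaving out each library. The members and lists were chosen with earlier results of these data known. A promoter sequence was used only where the RefSeq table held one. Of the third further list, 2 genes are counted and not reported here by name.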

Additional observations from a re-analysis of the deposited data

How the results depend on the processing

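Of 101 counts of called members under the alternatives, 77 stayed within 1.5 times the reported one. Of 796 single gene estimates, 742 had the same status, called or not called, as the reported one. These include estimates called in neither fit, some of them with the other sign. Another 38 lost a call, 14 gained one and 2 turned direction. At MB against P7 and MB against P14 no count moved by more than 1.5 times. At P1 against E15.5 the count of 5 was 3 in the TSS model table, which held 7 members. Over all genes, 7061 of 15259 were called, and 4876 of 10708 in that table. Inside 1 counting set, with E15.5 replicate 2 alone, the count of members was lower. At P7 against P1 the count of 3 was 1 in the TSS model table and 1 with the groups compared alone, and between 0 and 4 with single libraries left out. Over all genes, 480 of 15259 were called there. It was 361 of 10708 in the TSS model table, 203 of 14607 with the groups compared alone, and 9 to 888 with single libraries left out. At P14 against P7 the count of 1 was 3 with DESeq2, 0 with RLE scaling, 2 with no filter, 0 with the replicate block and 3 with the groups compared alone, and it was 0 without any 1 library. Over all genes, 1574 of 15259 were called there. In the same order it was 2418 of 19133, 1527 of 15259, 1460 of 19133, 1234 of 15259 and 3838 of 14810. Without any 1 library it was 125 to 1077. At P14 against P1 the count of 1 was 3 with DESeq2, 2 with the groups compared alone, and 1 to 2 with single libraries left out. Over all genes, 1364 of 15259 were called there. In the same order it was 2407 of 19133, 4089 of 14833, and 154 to 2714. Over the 4 ages the count of 8 was 4 in the TSS model table, where 5941 of 10708 genes were called, against 8499 of 15259. Pcp4 turned direction in the TSS model table, to 0.66 at P1 against E15.5 and -0.37 at P7 against P1. The cause of the other differences was not tested. The replicate numbers did not pair the libraries: deviations of same-numbered libraries from their group means correlated at -0.24 to 0.33. The block moved the count at P7 against P1 from 3 to 2, with 248 of all 15259 genes called. It left the other counts not named above as they were. P7 against P1 and P14 against P7 could not be fitted inside 1 counting set. Depth limits Ppp1r17 at P1 and Calb1, Pcp2 and Skor2 in MB.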
